A study of Mus musculus with 52 samples.

Results

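The comparison of tumors given ADU-S100 plus the anti-LTβR antibody with tumors given ADU-S100 alone used 16 of the 52 RNA-seq libraries, 8 tumors in each group, and every gene of the table. It asked what the antibody did to the tumor transcriptome when it was added to the STING agonist. The members were the libraries that GEO's sample labels assign to these groups. All tumors grew under the skin of male C57BL/6NHsd mice aged 8 to 10 weeks from KPC cells, a mouse pancreatic ductal adenocarcinoma line derived from genetically engineered tumors that carry mutant Trp53 and a pancreatic Pdx1-Cre. Because KPC is 1 line, the tumors are replicates of that line, and the labels do not say whether any shared a mouse. All 32 tumors used here carry the same tag in their labels, but the study describes its bulk RNA-seq as combining separate experiments, and whether the 32 come from more than 1 is not settled by the labels. ADU-S100 was injected into the tumor once, at 2 µg on day 0, in both groups, and the combination group also received 4 doses of 100 µg of the agonistic antibody 4H8 into the peritoneum. Tumors were taken on day 14. A further 8 untreated tumors and 8 tumors given the antibody alone served only to compare the antibody's effect with and without ADU-S100.

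ADU-S100 is a cyclic dinucleotide that activates STING, an adaptor of the endoplasmic reticulum membrane that senses cyclic dinucleotides and starts type I interferon and NF-κB signaling. LTβR is a receptor of the TNF receptor superfamily on stromal, endothelial and myeloid cells that responds to lymphotoxin α1β2 and LIGHT. It acts largely through NIK and the p52-RelB form of NF-κB, and in lymphoid organs it is needed for chemokine-producing stroma, for high endothelial venules and for the tertiary lymphoid structures that can form in inflamed tissue and tumors.

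Recovered whole reads per library ranged from 12882570 to 15214537 with ADU-S100 alone and from 12803439 to 15591986 with the combination. Values below are normalized counts, the reads estimated for a gene divided by a size factor for its library, and differences are log2 fold changes of the combination over ADU-S100 alone on the scale log2(normalized count + 1), with the standard error and the Benjamini-Hochberg adjusted p from limma. "Rose" and "fell" mean an adjusted p below 0.05, and called genes also passed a 2-fold change, the thresholds of the study's own analysis. Positions are on GRCm38. Libraries differed in tissue of the injection site. The summed normalized counts of 10 keratinocyte genes ranged from 1329 to 38252 (median 5185) with ADU-S100 alone and from 1733 to 61823 (median 21904.5) with the combination, and those of 11 skeletal muscle genes from 8286 to 251610 and from 7973 to 425229. Combination tumors 7 and 8 stood apart in 7 erythrocyte genes, at 121610 and 91248 against 14635 to 32623 in ADU-S100 tumors. No member of the keratinocyte, muscle, adipose or erythrocyte lists passed the test, with list medians of 1.31, -0.11, 0.23 and 0.53. Under alternatives, 3 keratinocyte genes rose in libraries above 14000000 reads and at most 2 elsewhere, 3 muscle genes rose with the covariates described next, and 1 erythrocyte gene rose with edgeR or DESeq2 on the recovered reads. The counts below were also computed without the 5 libraries above 30000 keratinocyte counts, without combination tumors 7 and 8, and with keratinocyte and muscle levels as covariates, and are given that way where a count of 4 or more moved by 1.5 times or more.

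**Figure D1:**
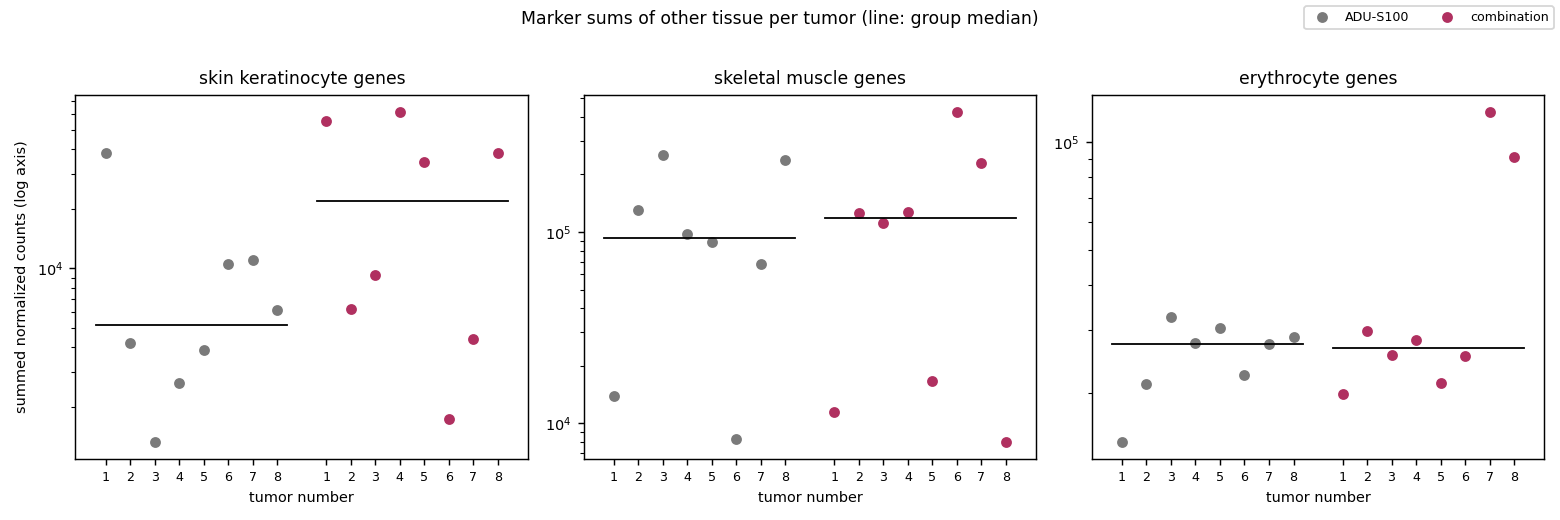
Summed normalized counts (log axis) of the keratinocyte, skeletal muscle and erythrocyte lists in each of the 16 tumors, by group, with 1 point per tumor. The groups overlap in all 3 lists, and the erythrocyte sums of combination tumors 7 and 8, 121610 and 91248, lie above all others.

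Of 16811 genes that passed the filter on low values, 1038 (6.17%) were called, 918 higher (5.46%) and 120 lower (0.714%) with the combination. At the adjusted p alone, 3391 genes (20.2%) rose and 4368 (26%) fell. On reads recovered from the larger table, with 15636 genes tested, edgeR gave 3484 higher and 3568 lower genes with RLE factors, 3564 and 3352 with TMM factors and 3469 and 3394 with library totals, so which direction held more genes depended on the setting. In 840 genes (5%) every combination tumor lay above every ADU-S100 tumor and in 1170 (6.96%) every one lay below. The median log2 fold change over all tested genes was -0.02. The gene groups with the largest shares of rising members were lymphatic and blood endothelium, immunoglobulin, T cells and fibrillar matrix, whereas antiviral interferon-stimulated genes, cell cycle genes and respiratory chain genes held few. In bulk tumor RNA, fewer cells of a type and less RNA of that type per cell cannot be told apart, and this holds for every value here.

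**Figure D2:**
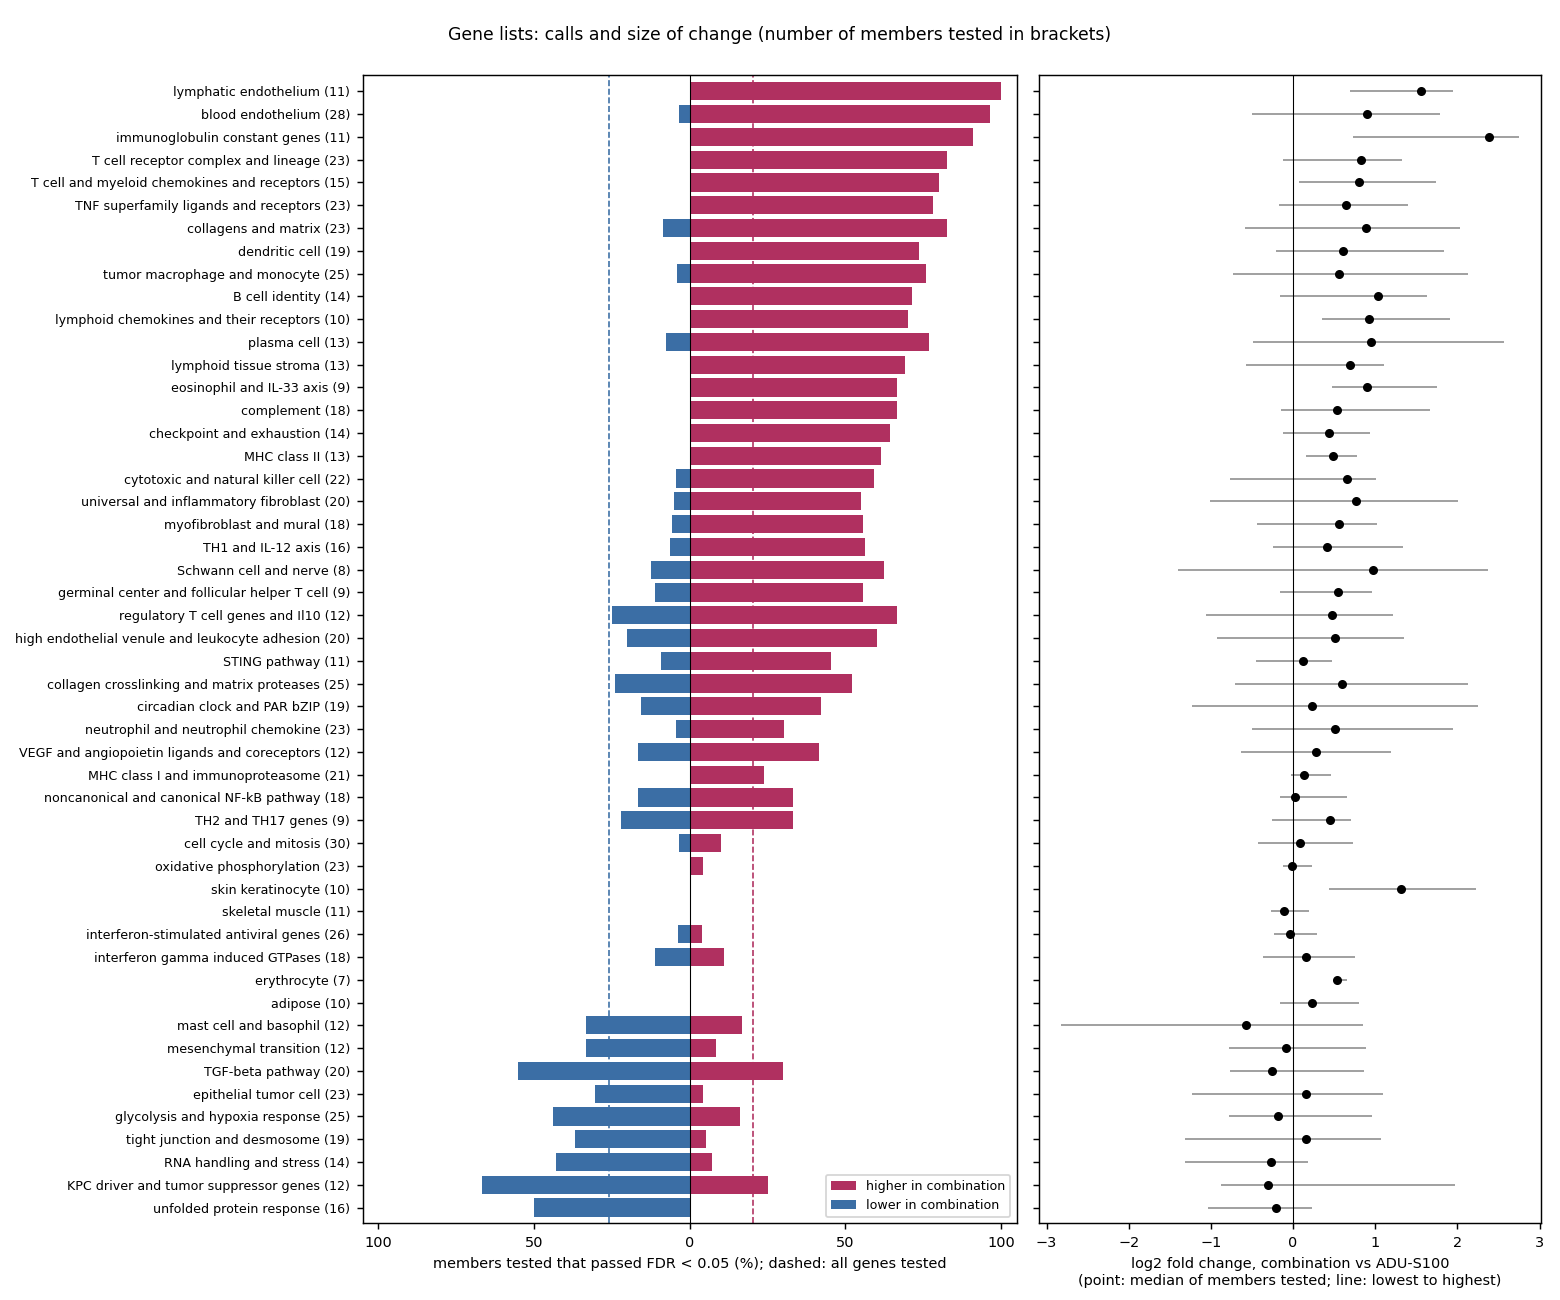
For each gene list, the share of tested members that rose or fell with the combination (adjusted p below 0.05), and the median and range of their log2 fold changes, with dashed lines at the shares over all genes, 20.2% and 26%. All 11 tested lymphatic genes and 27 of 28 blood endothelial genes rose, against 1 of 26 antiviral interferon-stimulated genes.

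**Figure D3:**
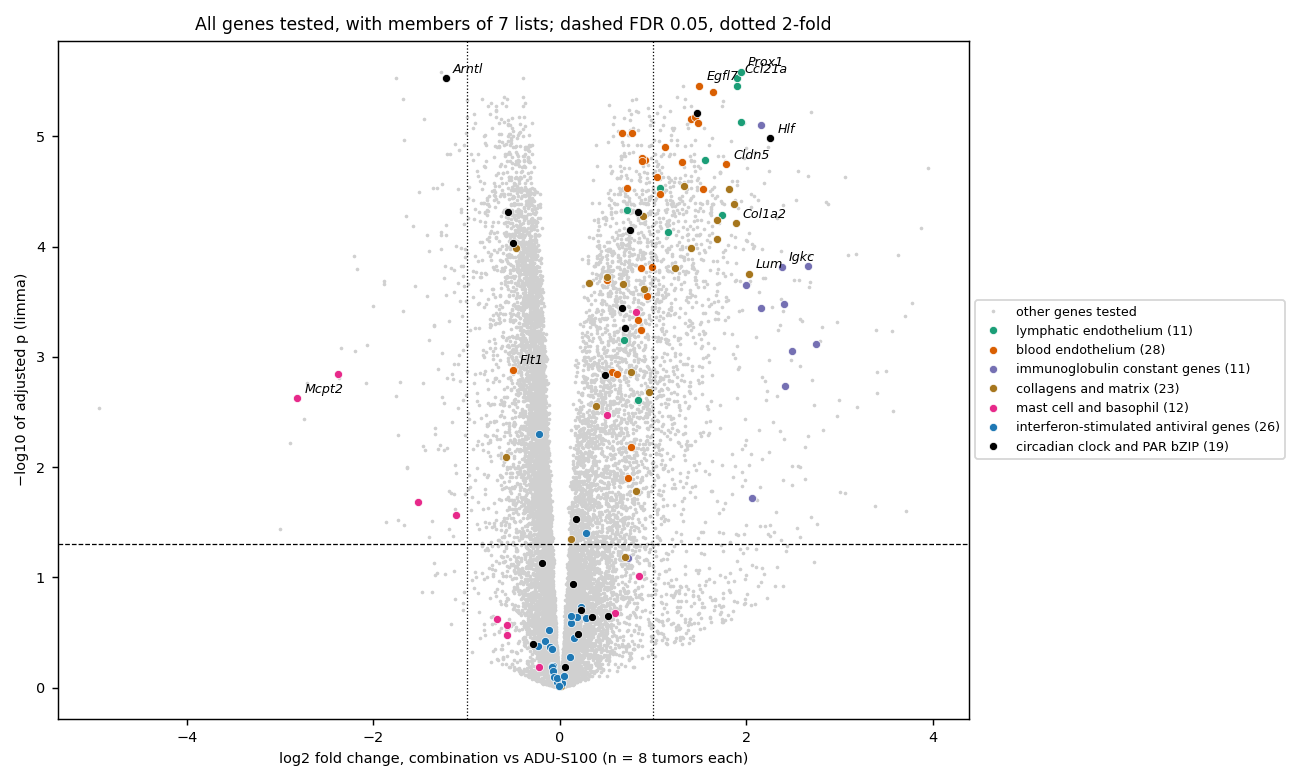
Log2 fold change of the combination over ADU-S100 alone (x axis) against −log10 of the adjusted p from limma (y axis) for 16811 genes, with members of 7 lists colored. Lymphatic endothelial, immunoglobulin and most collagen genes lie on the right. Called genes were 918 higher and 120 lower, and log2 fold changes ran from -4.94 to 3.94 over all genes tested.

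The targets of the agents were measured first. Ltbr, the receptor that the antibody binds (chromosome 6, 125306571 to 125313885), had 1132 to 1352 normalized counts (median 1299) with ADU-S100 alone and 1138 to 1367 (median 1216) with the combination, and the groups overlapped (log2 fold change -0.05, SE 0.0448, adjusted p = 0.429). Sting1, the adaptor that ADU-S100 binds, had 910.3 to 1122 normalized counts (median 1002) with ADU-S100 alone and 1062 to 1427 (median 1254) with the combination (log2 fold change 0.31, SE 0.0643, adjusted p = 0.000878). The ligands of LTβR rose in mRNA. Ltb, which anchors lymphotoxin at the cell membrane (chromosome 17, 35194439 to 35196320), had 73.3 to 142 normalized counts (median 117) with ADU-S100 alone and 150.3 to 255 (median 221) with the combination, and no value of the groups overlapped (log2 fold change 0.88, SE 0.140, adjusted p = 0.000119). Lta had 2.92 to 11.02 normalized counts (median 6.51) with ADU-S100 alone and 10.6 to 43.7 (median 15.0) with the combination (log2 fold change 1.39, SE 0.322, adjusted p = 0.00211), and Tnfsf14, which encodes LIGHT, had 27.7 to 43.4 normalized counts (median 37.0) with ADU-S100 alone and 40.6 to 64.5 (median 54.5) with the combination (log2 fold change 0.58, SE 0.120, adjusted p = 0.000872). Lta stands at a few reads per tumor, so its fold carries a large counting error.

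The promoter of Ltb is printed because Ltb is the LTβR ligand whose groups did not overlap. It is the 250 bases before the annotated start in RefSeq, GRCm38.p6, plus strand, chr17:35194257-35194506, 5′ to 3′. Capitals mark matches to κB-like words, GGGA and TCC set 3 bases apart or GGGG and TTCC set 2 bases apart, searched on both strands, which 3.86% and 1.26% of 32851 promoters of this length held. In this window the first word matched at 87 bases before the start.
Ltb: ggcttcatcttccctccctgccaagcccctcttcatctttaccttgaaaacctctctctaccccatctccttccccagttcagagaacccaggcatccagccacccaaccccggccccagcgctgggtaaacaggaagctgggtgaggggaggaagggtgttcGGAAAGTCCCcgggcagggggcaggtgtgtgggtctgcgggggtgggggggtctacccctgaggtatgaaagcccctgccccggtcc

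Most tested TNF superfamily genes rose. Of 23 tested members of 28, 18 rose, 0 fell and 5 did not pass, with a median log2 fold change of 0.64. Tnf, the inflammatory cytokine, had 47.1 to 113 normalized counts (median 71.6) with ADU-S100 alone and 106 to 349.9 (median 195) with the combination, with 7 of 8 combination tumors above every ADU-S100 tumor (log2 fold change 1.39, SE 0.244, adjusted p = 0.000246). Cd27, a costimulatory receptor of T and B cells, rose from a median of 39.2 to 87.3 normalized counts and Tnfrsf13b, the TACI receptor of B and plasma cells, from 99.5 to 189 (log2 fold changes 1.15 and 0.98). Cd40, the receptor through which T cells activate B cells and dendritic cells, had 117 to 227 normalized counts (median 164) with ADU-S100 alone and 210.3 to 374 (median 295) with the combination (log2 fold change 0.86, SE 0.125, adjusted p = 6.09e-05). Its ligand Cd40lg did not pass the filter and was compared by an exact two-sided permutation test. It had 0 to 3.01 normalized counts (median 0.995) with ADU-S100 alone and 4.61 to 11.5 (median 7.18) with the combination, which is non-overlapping, with exact p = 0.000155, the smallest that the splits of 8 and 8 tumors allow. Of the NF-κB pathway members, 6 of 18 rose and 3 fell, with a median of 0.02, beside rises in 20.2% and falls in 26% of all genes tested. Those that rose were Rel, Birc2, Birc3, Nfkbia, Nfkbie and Tnfaip3, of which the last 3 encode inhibitors of the pathway, and Nfkb1, Chuk and Rela fell by at most 0.16 on the log2 scale. The p52-RelB arm itself, Map3k14 for NIK, Nfkb2 and Relb, had log2 fold changes of 0.05, 0.02 and 0.03, none past the test (adjusted p = 0.636, 0.873 and 0.831 from limma).

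Lymphatic endothelial genes had the highest median among the endothelial lists. All 11 tested members rose, 9 of them with no overlap between the groups, and their median log2 fold change was 1.56. Prox1, the transcription factor that specifies lymphatic identity (ENSMUSG00000010175, chromosome 1, 190118035 to 190170714), had 33.1 to 57.2 normalized counts (median 47.7) with ADU-S100 alone and 132 to 246 (median 175) with the combination (log2 fold change 1.94, SE 0.144, adjusted p = 2.58e-06). Every combination tumor held more than any ADU-S100 tumor. Flt4, the VEGF-C receptor of lymphatic endothelium, had 93.3 to 193 normalized counts (median 129) with ADU-S100 alone and 381 to 717 (median 519.6) with the combination (log2 fold change 1.903, SE 0.163, adjusted p = 3.48e-06). Ccl21a, the CCR7 ligand made by lymphatic endothelium, high endothelial venules and lymphoid stroma, had 321 to 631 normalized counts (median 358) with ADU-S100 alone and 961 to 2107 (median 1468) with the combination, again without overlap (log2 fold change 1.903, SE 0.153, adjusted p = 2.96e-06). Ccl21a has near-identical copies in the mouse genome, so its reads could be split among them. Lyve1, Mmrn1 and Reln rose with log2 fold changes of 1.74, 1.94 and 1.56. Lyve1 and Stab1 are also made by macrophages and Pdpn and Thy1 by fibroblasts, and Prox1, Flt4, Mmrn1 and Reln are the more restricted markers of lymphatic endothelium. These 11 rises stood in each of the 3 fits that deal with injection-site tissue or blood.

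Blood endothelial genes rose nearly as a block. Of 28 tested, 27 rose, 21 without overlap, and 1 fell, with a median log2 fold change of 0.90. Egfl7, an endothelial matrix protein (chromosome 2, 26580014 to 26593120), had 119.8 to 197 normalized counts (median 167) with ADU-S100 alone and 354 to 579 (median 469.7) with the combination (log2 fold change 1.49, SE 0.127, adjusted p = 3.48e-06). Cldn5, the endothelial tight junction claudin, had 34.4 to 102 normalized counts (median 58.3) with ADU-S100 alone and 145 to 262 (median 203) with the combination (log2 fold change 1.78, SE 0.216, adjusted p = 1.80e-05). No tumor of either group fell into the range of the other for these genes. The pan-endothelial genes Pecam1 and Cdh5 rose by less, from medians of 567 to 1000.01 and 366 to 677 normalized counts (log2 fold changes 0.88 and 0.88), and Kdr for VEGF receptor 2 rose from 145 to 317 (1.078). The exception was Flt1, VEGF receptor 1, which fell from a median of 8638 to 5968 (log2 fold change -0.50, SE 0.109, adjusted p = 0.00131). Ligands split as well. Vegfa fell from a median of 8002 to 5285 and its coreceptor Nrp1 from 1425 to 949 (log2 fold changes -0.54 and -0.63), whereas Vegfc and Vegfd, the ligands of the lymphatic receptor, rose from 156 to 290.1 and 89.5 to 130.4 (0.69 and 0.65), and Angpt2, an endothelial antagonist of Tie2, from 98.8 to 208 (1.19). In the VEGF and angiopoietin list 5 of 12 genes rose and 2 fell, with a median of 0.28.

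**Figure D4:**
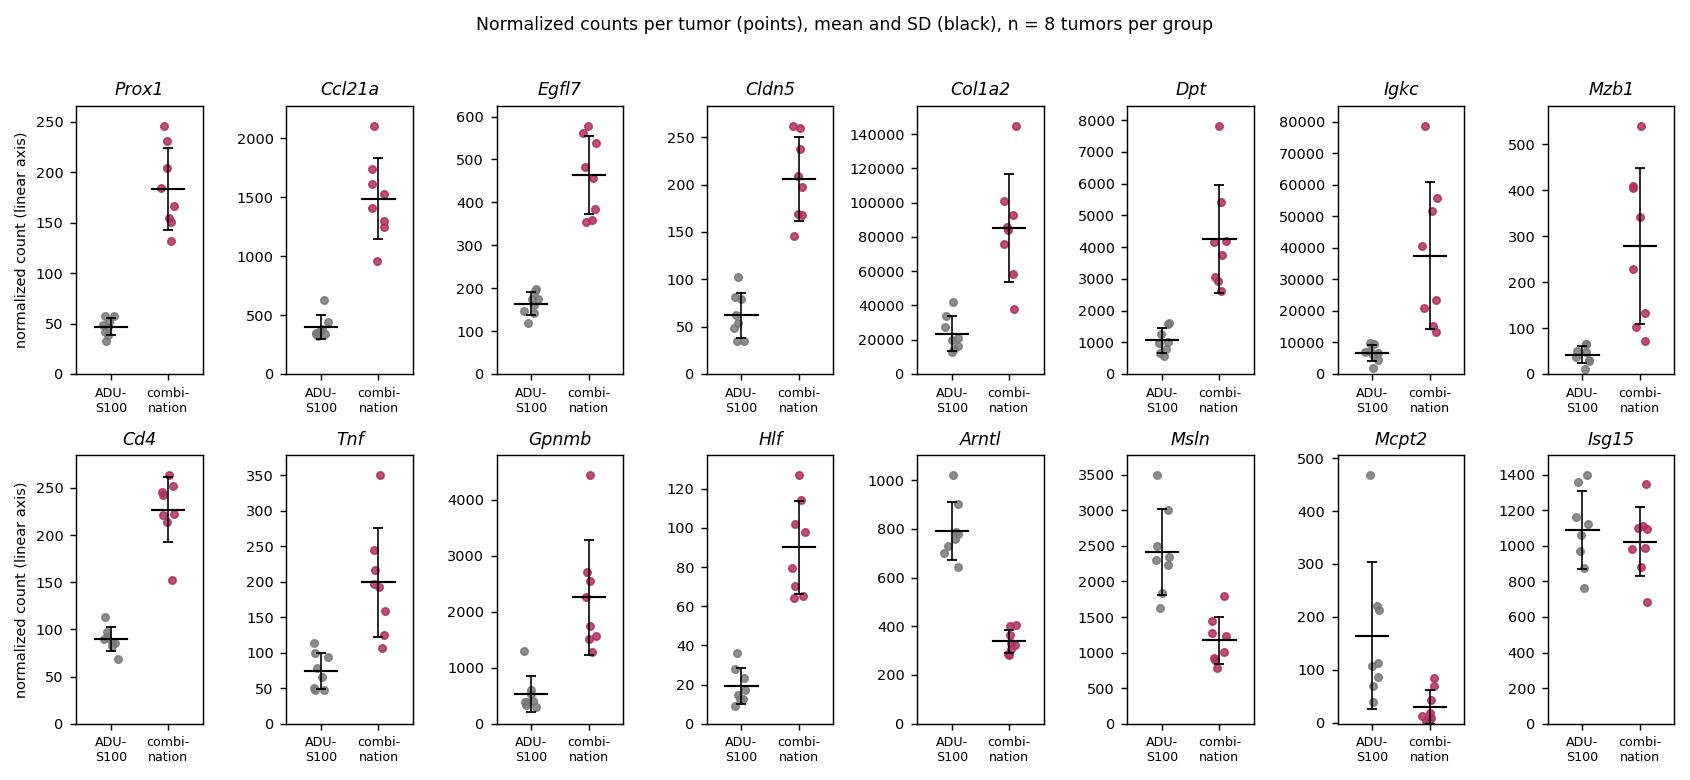
Normalized counts (linear axes) of 16 genes in each tumor of the ADU-S100 and combination groups, 1 point per tumor, with the mean and SD of 8 tumors. Prox1, Ccl21a, Egfl7, Cldn5, Dpt, Igkc, Mzb1, Cd4, Hlf and Arntl do not overlap between the groups, and Isg15 overlaps throughout.

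High endothelial venules carry sulfated sialomucins that L-selectin binds. The specialized genes of these vessels stayed at a few reads. Glycam1, a mucin core of that ligand, had 0 to 7.72 normalized counts (median 0.984) with ADU-S100 alone and 4.74 to 16.6 (median 9.72) with the combination and passed the exact two-sided permutation test over samples (p = 0.000777, adjusted 0.00596 over the 46 list members below the filter). Chst4, the sulfotransferase of the ligand, had 0 to 0.990 normalized counts (median 0) with ADU-S100 alone and 0 to 2.95 (median 1.88) with the combination (exact p = 0.0219, adjusted 0.0916), and Madcam1, the mucosal addressin, had 0 to 0.987 normalized counts (median 0) with ADU-S100 alone and 0 to 7.47 (median 1.46) with the combination (exact p = 0.0741, adjusted 0.177). For Chst4 and Madcam1 a difference could not be resolved at this depth. Among 20 tested genes of venules and leukocyte adhesion, 12 rose and 4 fell (median 0.51). Vcam1 and Icam1, the integrin ligands that hold rolling leukocytes, rose from medians of 1312 to 2470.1 and 377 to 825 (0.96 and 1.05), Ackr1, the chemokine-binding receptor of venules, from 30.7 to 65.0 (1.06), and Enpp2, the lysophosphatidic acid producing autotaxin, from 279 to 453 (0.94). The members that fell were Podxl, Spns2, B3gnt3 and Gcnt1, with log2 fold changes of -0.93, -0.48, -0.32 and -0.29, all of which were at medians over 900 normalized counts in both groups.

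Homeostatic chemokines and the stroma that makes them rose in part. 7 of 10 lymphoid chemokine and receptor genes rose and 0 fell, with a median of 0.92. Beside Ccl21a, Cxcl12, the CXCR4 ligand of stroma, had 924 to 2181 normalized counts (median 1110.1) with ADU-S100 alone and 1975 to 4473 (median 2925) with the combination (log2 fold change 1.34, SE 0.194, adjusted p = 5.88e-05). Gpr183, the oxysterol receptor that positions B cells, and Ccr7 rose from medians of 42.4 to 91.1 and 61.5 to 100.3 (0.98 and 0.68). Cxcl13, the follicular B cell attractant, had 2.19 to 24.4 normalized counts (median 10.4) with ADU-S100 alone and 4.27 to 35.6 (median 13.9) with the combination and did not pass (log2 fold change 0.35, SE 0.461, adjusted p = 0.563), whereas Ccl19, the other CCR7 ligand, rose at a low level, from 10.5 to 24.1 (1.11). In the list of lymphoid tissue stroma, 9 of 13 rose and 0 fell (median 0.70), among them Il7, the lymphocyte survival cytokine, Bst1, Tnfsf13b for BAFF and Tnfsf11 for RANKL, with log2 fold changes of 0.70, 0.92, 0.62 and 1.03. Of chemokines and receptors of effector T cells and myeloid cells, 12 of 15 rose and 0 fell (median 0.80). The CXCR3 ligands Cxcl9, Cxcl10 and Cxcl11 rose from medians of 3656 to 6786, 1549 to 2523 and 56.7 to 137 (0.80, 0.66 and 1.36), their receptor Cxcr3 from 32.4 to 90.8 (1.39) and Ccl5 from 961 to 2391 (1.34). The monocyte attractants Ccl2 and Ccl7 gave 0.10 and 0.08 and did not pass.

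Immunoglobulin constant genes had the largest median log2 fold change of the 50 lists, 2.38. 10 of 11 tested constant genes rose, and Ighd, which marks naive B cells, did not pass (log2 fold change 0.73, adjusted p = 0.0664 from limma). Igkc had 1951 to 9819.5 normalized counts (median 6799.6) with ADU-S100 alone and 13335 to 78823 (median 32036) with the combination (log2 fold change 2.38, SE 0.391, adjusted p = 0.000152). The lowest combination tumor exceeded the highest ADU-S100 tumor, and the combination tumors themselves spread over a wide range. Igha, Ighg1, Ighg2b, Ighg2c and Ighm rose from medians of 5112 to 27234, 1397 to 7920.4, 1656 to 7547, 1296 to 8498 and 1964 to 9285, with log2 fold changes of 2.41, 2.41, 2.66, 2.49 and 1.99. In 4 of the 11 the groups did not overlap, beside 5% of all genes tested that were higher without overlap. Of the 10 genes with the largest non-overlapping rise, 5 were variable segments (Ighv1-59, Igkv2-137, Igkv6-17, Igkv1-110 and Igkv8-24, log2 fold changes 3.94 to 3.09), where single tumors were far above the rest, such as combination tumor 6 for Igkv2-137 at 2678 and combination tumor 7 for Igkv6-17 at 2967. Immunoglobulin segments resemble one another, so reads could be assigned to a neighboring copy.

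Plasma and B cell genes accompanied them at different sizes. Of 13 tested plasma cell genes 10 rose and 1 fell (median 0.95). Mzb1, a chaperone of immunoglobulin assembly (chromosome 18, 35647267 to 35649367), had 11.01 to 66.3 normalized counts (median 42.7) with ADU-S100 alone and 71.9 to 541 (median 286) with the combination (log2 fold change 2.57, SE 0.438, adjusted p = 0.000201). Jchain, the joining chain of polymeric IgA and IgM, rose from a median of 1630.1 to 8180.1 and Pou2af1, the B cell coactivator OBF-1, from 52.2 to 247 (2.37 and 2.16). Sdc1, the proteoglycan used as a plasma cell marker but also carried by carcinoma cells, fell from 18692 to 13513 (-0.48). B cell identity genes rose in 10 of 14 tested, with 0 falls and a median of 1.03. Cd79a, a chain of the B cell receptor complex, had 10.9 to 58.9 normalized counts (median 37.4) with ADU-S100 alone and 52.4 to 289 (median 119) with the combination (log2 fold change 1.63, SE 0.358, adjusted p = 0.00145), and Ms4a1, the CD20 gene, rose from 13.6 to 29.9 (1.31). Requiring at least 10 counts in every library left 6 rising B cell genes. In the germinal center and follicular helper list only 9 of 16 members passed the filter, of which 5 rose and 1 fell (median 0.55). Icos, the costimulator of follicular helper T cells, rose from 95.3 to 178 (0.96). The single fall, Bcl6 from 1047 to 987 (log2 fold change -0.16, SE 0.0627, adjusted p = 0.042), did not pass under 11 of the alternatives and with any of 8 single libraries left out. Il21, a follicular helper T cell cytokine, had 0 to 4.87 normalized counts (median 1.49) with ADU-S100 alone and 2.77 to 9.76 (median 4.40) with the combination (exact two-sided p = 0.00715, adjusted 0.0329) and Mef2b, a germinal center transcription factor, 0 to 4.41 normalized counts (median 0.978) with ADU-S100 alone and 2.13 to 22.4 (median 9.70) with the combination (exact p = 0.000311, adjusted 0.00477). In all, 10 of the 46 list members below the filter were higher by this test and 0 lower, Cd40lg, Il23r, Mef2b, Glycam1, Sh2d1a, Tnfrsf13c, Tnfrsf17, C1s2, Cldn7 and Il21.

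Most T cell genes rose. 19 of 23 rose, 0 fell, and the median was 0.82. Cd4, the coreceptor of helper T cells and also present on some myeloid cells (chromosome 6, 124864692 to 124888221), had 68.7 to 114 normalized counts (median 88.4) with ADU-S100 alone and 153 to 263 (median 233) with the combination (log2 fold change 1.32, SE 0.112, adjusted p = 3.48e-06). Cd8a had 256 to 520.3 normalized counts (median 380.3) with ADU-S100 alone and 369.5 to 938 (median 588) with the combination (log2 fold change 0.60, SE 0.182, adjusted p = 0.0131), which overlap. Cd3e and Trac, of the T cell receptor complex, rose from medians of 130.1 to 214 and 145 to 282 (0.69 and 0.82). Tcf7, Lef1 and Bcl11b, transcription factors of naive and developing T cells, gave -0.12, 0.18 and 0.28 and did not pass. In the TH1 and IL-12 list 9 of 16 rose and 1 fell (median 0.41), with Ifng from 49.3 to 110.5, Tbx21, the TH1 master regulator, from 46.2 to 106 and Il12rb2, an IL-12 receptor chain, from 23.3 to 74.0 (1.17, 1.09 and 1.34). Of the TH2 and TH17 genes 9 of 19 passed the filter, of which 3 rose and 2 fell (median 0.45). The 3 that rose were Il1r1 and Rora, which many other cells express, and Ccr8, a chemokine receptor of TH2 and regulatory T cells, with 0.65, 0.70 and 0.67, whereas Il4ra and Il17ra fell with -0.25 and -0.21. Below the filter, Il23r, the IL-23 receptor chain of TH17 cells, had 0 to 3.01 normalized counts (median 1.04) with ADU-S100 alone and 2.41 to 10.4 (median 5.30) with the combination (exact two-sided p = 0.000311, adjusted 0.00477), and the cytokine genes Il4, Il5, Il13, Il17a, Il17f and Il23a and the receptor genes Ccr4 and Ccr6 did not pass, with adjusted exact permutation p from 0.103 to 0.845.

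Regulatory and inhibitory genes followed. 8 of 12 regulatory T cell genes rose and 3 fell (median 0.47). Foxp3, the lineage factor, had 21.7 to 51.5 normalized counts (median 31.9) with ADU-S100 alone and 42.8 to 88.6 (median 61.6) with the combination (log2 fold change 0.98, SE 0.181, adjusted p = 0.000371), and Il2ra rose from 75.5 to 161 (1.22). The cytokine Il10 went the other way, with 27.7 to 59.4 normalized counts (median 37.9) with ADU-S100 alone and 15.0 to 25.8 (median 17.9) with the combination (log2 fold change -1.06, SE 0.165, adjusted p = 0.000102), and no tumor overlapped with the other group. Tgfb1 fell from 6093 to 4502 and Nt5e, the adenosine-producing CD73, from 3536 to 2521 (-0.48 and -0.37). Checkpoint genes rose in 9 of 14 and fell in 0 (median 0.44), among them Pdcd1lg2 for PD-L2, Ctla4, Lag3 and Cd274 for PD-L1 with 0.94, 0.91, 0.69 and 0.52. Of 22 cytotoxic and natural killer genes 13 rose and 1 fell (median 0.66). Fasl, the death ligand, Klrk1 for the activating receptor NKG2D and Gzmb for granzyme B rose with 0.96, 0.83 and 0.69. Prf1, the perforin gene, and Gzma gave 0.26 and 0.42 without passing, and Klra4, the activating receptor Ly49D of natural killer cells, fell from 1122 to 684 (-0.77).

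Among myeloid lists, dendritic cell genes rose in 14 of 19 and fell in 0 (median 0.61). Irf4, a factor of type 2 dendritic cells and of plasma cells, rose from 93.5 to 325, Cd209a from 21.4 to 50.7 and Mgl2 from 208 to 513 (1.84, 1.36 and 1.27). Batf3 and Clec9a, of type 1 dendritic cells, rose with 1.03 and 0.78, but Xcr1 had 12.7 to 34.4 normalized counts (median 31.8) with ADU-S100 alone and 17.1 to 43.2 (median 21.0) with the combination and did not pass (log2 fold change -0.04), nor did Siglech, of plasmacytoid cells (-0.21). Macrophage and monocyte genes rose in 19 of 25 and fell in 1 (median 0.56). Gpnmb, a lysosomal glycoprotein of lipid-laden macrophages, had 302 to 1301 normalized counts (median 400.3) with ADU-S100 alone and 1272 to 4434 (median 2006) with the combination (log2 fold change 2.13, SE 0.289, adjusted p = 3.79e-05). The largest value came from combination tumor 5, and ADU-S100 tumor 6 lay within the combination range. Nos2, the inducible nitric oxide synthase, rose from 1542 to 4084 and Ly6c2, of inflammatory monocytes, from 418 to 905 (1.40 and 1.15). Spp1, osteopontin, fell from a median of 176438 to 116092 (log2 fold change -0.73, SE 0.157, adjusted p = 0.00132). Neutrophil genes rose in 7 of 23 and fell in 1 (median 0.51), beside rises in 20.2% of all genes tested. The rises included Mmp9, which other myeloid and stromal cells share, from 645 to 2422, and Acod1, the itaconate-producing enzyme, from 299 to 761 (1.95 and 1.27). Csf3r, a neutrophil marker, and Mmp8 also rose, with log2 fold changes of 0.39 to 0.66 and 0.71 to 1.23 over the settings. Ly6g, Camp and Ngp gave 0.50, 0.51 and 0.44 and did not pass. Ngp, a neutrophil granule gene, reached 6791 and 4830.3 in combination tumors 7 and 8, which were also high in erythrocyte genes, against at most 2215 in ADU-S100 tumors.

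Of 12 tested mast cell and basophil genes 4, all proteases, fell and 2 rose (median -0.57), beside falls in 26% of all genes tested. Mcpt2, a mucosal-type chymase, had 38.9 to 468 normalized counts (median 110.4) with ADU-S100 alone and 2.93 to 85.3 (median 14.7) with the combination, with ADU-S100 tumor 1 the highest (log2 fold change -2.82, SE 0.661, adjusted p = 0.00236), and Mcpt1 had 50.9 to 383 normalized counts (median 133) with ADU-S100 alone and 9.23 to 112 (median 21.4) with the combination (log2 fold change -2.37, SE 0.519, adjusted p = 0.00142). Tpsb2, a tryptase, fell from 103 to 42.8 (-1.11) and Tpsab1 from 14.9 to 4.10 (-1.52). The groups overlapped for all of them. Cpa3 and Mcpt4, shared by most mast cells, gave -0.57 and -0.57 and did not pass (adjusted p = 0.27 and 0.33 from limma), and the receptor Kit and Gata2, which mast cells share with other cells, rose with 0.51 and 0.81. With keratinocyte and muscle covariates 7 members fell, with at least 10 counts in every library 1, and in libraries above 14000000 reads 2. Eosinophil and IL-33 genes rose in 6 of 9 and fell in 0 (median 0.90), in 4 without the libraries above 30000 keratinocyte counts and in 3 with at least 10 counts in every library. Il33, an alarmin of fibroblasts and endothelium, had 271 to 1003 normalized counts (median 586) with ADU-S100 alone and 779.5 to 1842 (median 1359.7) with the combination (log2 fold change 1.196, SE 0.216, adjusted p = 0.000323), and Ear2, an eosinophil and macrophage ribonuclease, rose from 52.3 to 184 (1.74).

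Complement genes rose in 12 of 18 and fell in 0 (median 0.53). C3, the component on which all pathways converge, had 3787 to 8933 normalized counts (median 5966) with ADU-S100 alone and 9927 to 26709 (median 20908) with the combination (log2 fold change 1.66, SE 0.224, adjusted p = 3.61e-05). C1s1 and C1ra, the proteases of C1 made by fibroblasts, rose from 1772 to 4954 and 1239.8 to 2944 (1.45 and 1.197), C7 from 50.6 to 188 (1.59), and Serping1, their inhibitor, from 2853 to 6388 (1.079).

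Most stromal matrix genes rose. 19 of 23 collagen and matrix genes rose and 2 fell (median 0.89). Col1a2, a chain of type I collagen (chromosome 6, 4504814 to 4541544), had 12636 to 41818 normalized counts (median 20463) with ADU-S100 alone and 37729.8 to 145015 (median 84956) with the combination, with 7 of 8 combination tumors above every ADU-S100 tumor (log2 fold change 1.89, SE 0.275, adjusted p = 6.16e-05). Col1a1 and Col3a1 rose from medians of 33045 to 116749 and 33165 to 120908 (1.69 and 1.69), and the collagen-binding proteoglycans Lum and Dcn from 908 to 3965 and 3093 to 11722 (2.03 and 1.86). The genes that fell were Fn1, fibronectin, from 354539 to 241156 (log2 fold change -0.58, SE 0.164, adjusted p = 0.00812) and Col18a1, a basement membrane collagen, from 8908 to 6535 (-0.47). The type IV chain Col4a1 rose by little (0.12) and Col8a1 did not pass (0.01). Crosslinking enzymes and proteases were mixed, with 13 of 25 higher and 6 lower (median 0.60). Loxl2, Lox, Mmp2 and Mmp3 rose with 1.61, 1.05, 1.28 and 2.13, and Timp3 and Timp1, metalloproteinase inhibitors, fell from 39833 to 23826 and 6484 to 4687 (-0.71 and -0.54).

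Fibroblast genes rose with the matrix in 11 of 20, with 1 fall (median 0.77). Dpt, dermatopontin, a marker of universal fibroblasts, had 581 to 1612 normalized counts (median 994) with ADU-S100 alone and 2618 to 7827 (median 3956) with the combination with no overlap (log2 fold change 2.01, SE 0.246, adjusted p = 1.93e-05). Pdgfra and Clec3b rose from 497 to 1354 and 258 to 772 (1.49 and 1.55), and Has1, a hyaluronan synthase, fell from 199.9 to 97.9 (-1.01). Of 18 myofibroblast and mural genes 10 rose and 1 fell (median 0.56), with Acta2, smooth muscle actin, from 1508 to 3025 and Rgs5, of pericytes, from 598 to 984 (0.98 and 0.86). Of the 20 listed genes of the TGF-β pathway, which drives matrix genes in fibroblasts, 11 fell and 6 rose (median -0.25). The list also holds inhibitors of the pathway, and the falls include 1 of them, Smad7 (-0.66 to -0.50 over the settings). The ligands Tgfb1 and Tgfb3 fell with -0.48 and -0.46 while Tgfb2 rose with 0.86. Smad3, a signal transducer, had 3152 to 4133 normalized counts (median 3829.7) with ADU-S100 alone and 1895 to 2582 (median 2236) with the combination (log2 fold change -0.77, SE 0.0730, adjusted p = 5.29e-06), and the latent TGF-β binding proteins Ltbp1, Ltbp3 and Ltbp4 fell with -0.68, -0.49 and -0.69. The receptors Tgfbr2 and Tgfbr3 rose (0.56 and 0.73). Schwann cell and nerve genes rose in 5 of 8 and fell in 1 (median 0.98), with Sox10, the Schwann cell factor, from 7.47 to 49.0 (log2 fold change 2.37, SE 0.425, adjusted p = 0.0003) and S100b from 276 to 95.7 (-1.41).

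Of 23 tested epithelial genes of carcinoma cells 7 fell, a share near the 26% of all genes tested, and 1 rose, with a median of 0.16. Below the filter Cldn7, a claudin of epithelial tight junctions, had 0.982 to 6.58 normalized counts (median 2.49) with ADU-S100 alone and 2.77 to 32.7 (median 10.7) with the combination (exact two-sided p = 0.0042, adjusted 0.0214), and Krt20 did not pass (adjusted exact p = 0.137). Of the epithelial list 6 rose in libraries above 14000000 reads and 3 without ADU-S100 tumor 1. Msln, mesothelin (chromosome 17, 25748613 to 25754378), had 1632 to 3493 normalized counts (median 2320.1) with ADU-S100 alone and 786 to 1792 (median 1118) with the combination, with 7 of 8 combination tumors below every ADU-S100 tumor (log2 fold change -1.06, SE 0.173, adjusted p = 0.000151). Krt18 had 3881 to 6872 normalized counts (median 5264) with ADU-S100 alone and 1692 to 3683 (median 2702) with the combination (log2 fold change -1.02, SE 0.160, adjusted p = 0.000104), and Krt8 fell from 8419 to 5123 (-0.69). Areg, the EGF receptor ligand amphiregulin, fell from 7852 to 2791 (-1.23). The epithelial adhesion genes Epcam and Cdh1, which keratinocytes also express, had medians of 37.1 and 177 with ADU-S100 alone and 75.2 and 345 with the combination and did not pass (0.90 and 0.60). Tight junction and desmosome genes fell in 7 of 19 and rose in 1 (median 0.16), with Cldn6 from 117 to 43.8 (-1.31), and in libraries above 14000000 reads 2 fell and 5 rose, while 4 rose without ADU-S100 tumor 1. Of the mesenchymal transition genes 4 of 12 fell and 1 rose (median -0.08), beside falls in 26% of all genes tested. Cdh2, N-cadherin, fell from 607 to 324 (-0.77), the transcription factors Zeb1, Zeb2 and Twist1 fell with -0.17, -0.17 and -0.22, and the rise was Prrx1, also a fibroblast factor, from 865 to 1622 (0.89). In libraries above 14000000 reads only the fall of Zeb1 remained of these 4, that of Twist1 was lost in 4 of the alternatives beside single left-out libraries, and 2 members fell without the libraries above 30000 keratinocyte counts or without combination tumor 6.

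Among the drivers and tumor suppressors of the KPC line 8 of 12 fell and 3 rose (median -0.30), and with edgeR on library totals 5 fell. Myc had 1861 to 2232 normalized counts (median 2021) with ADU-S100 alone and 863 to 1610.4 (median 1268) with the combination (log2 fold change -0.75, SE 0.112, adjusted p = 7.45e-05). Sox9, a ductal transcription factor, fell from 4342 to 2457 and Pdx1, the pancreatic factor, from 383 to 263 (-0.88 and -0.50). The 3 that rose, Cdkn2a, Cdkn2b and Mtap, are neighbors on chromosome 4. Mtap had 76.6 to 121 normalized counts (median 97.4) with ADU-S100 alone and 175 to 279 (median 201) with the combination (log2 fold change 1.11, SE 0.116, adjusted p = 7.95e-06), and Cdkn2a had 2.01 to 17.8 normalized counts (median 8.25) with ADU-S100 alone and 20.7 to 62.6 (median 31.7) with the combination (log2 fold change 1.97, SE 0.308, adjusted p = 0.000105). None of the 3 overlapped between the groups. Few cell cycle genes passed the test, with 3 of 30 higher and 1 lower (median 0.08), though 6 were higher without ADU-S100 tumor 7 and 5 in the fit blocked by replicate number. Mki67 had 1948 to 3323 normalized counts (median 2598) with ADU-S100 alone and 2062 to 3764 (median 2770.2) with the combination (log2 fold change 0.11, SE 0.127, adjusted p = 0.514). Ccnd1 fell from 11872 to 8746 and Ccne1 rose from 94.6 to 163 (-0.42 and 0.73).

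Glycolysis and hypoxia genes fell in 11 of 25 and rose in 4 (median -0.18), but 5 fell with edgeR's TMM factors, 6 with library totals, 7 in libraries above 14000000 reads, and 6 or 7 when ADU-S100 tumor 1, 2, 4, 5 or 7 or combination tumor 3 or 5 was left out. Slc2a1, the glucose transporter GLUT1, fell from 6915 to 5097 (-0.47), and Car9, a hypoxia-induced carbonic anhydrase, gave -0.78 and narrowly missed the threshold (adjusted p = 0.0537 from limma). Slc2a3, GLUT3 of leukocytes, rose from 149 to 280.4 (0.96). Of 23 nuclear genes of the respiratory chain 1 rose and 0 fell (median -0.01). The rise was Ndufa1 (log2 fold change 0.22, SE 0.0715, adjusted p = 0.0166), lost in libraries above 14000000 reads, in which 5 members fell, and 1 fell without combination tumor 6. Unfolded protein response genes fell in 8 of 16 and rose in 0 (median -0.21), ATF4 targets among them, and 2 rose with DESeq2 or with edgeR's TMM factors. Trib3 had 974 to 2406 normalized counts (median 1721) with ADU-S100 alone and 589.7 to 1196 (median 802) with the combination (log2 fold change -1.04, SE 0.175, adjusted p = 0.000186), and Asns for asparagine synthetase and Chac1 fell with -0.96 and -0.99, while Hspa5, the chaperone BiP, fell with -0.28. In the stress list 6 of 14 fell and 1 rose (median -0.27). The near-identical heat shock genes Hspa1a and Hspa1b fell from 689.9 to 264 and 1572 to 649 (-1.32 and -1.28), and the immediate early genes Fos and Jun gave -0.13 and -0.05 and did not pass.

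Few interferon-stimulated genes, a common readout of STING, passed the test. Of 26 tested antiviral genes 1 rose and 1 fell, with a median of -0.03 and a range of -0.24 to 0.28. Isg15, a ubiquitin-like modifier, had 764 to 1396 normalized counts (median 1092) with ADU-S100 alone and 684 to 1347 (median 1041) with the combination (log2 fold change -0.09, SE 0.136, adjusted p = 0.638), and the groups overlapped throughout. Ifit1 and Oas1a gave -0.08 and -0.08. The gene that rose was Zbp1 (log2 fold change 0.28, SE 0.108, adjusted p = 0.0396), whose call was lost under 4 of the alternatives and with several single tumors left out, and the gene that fell was Irf9 (log2 fold change -0.22, SE 0.0586, adjusted p = 0.00502). Of 18 interferon-γ-induced GTPases 2 rose, Ifi47 and Gbp5 (0.31 and 0.75), and 2 fell, the near-identical pair Tgtp1 and Tgtp2 (-0.36 and -0.34), with a median of 0.15. The number that rose became 7 and the number that fell 0 without the libraries above 30000 keratinocyte counts, and 5 rose without combination tumor 8. The fall of Tgtp1 (adjusted p = 0.0422 from limma) was also lost with edgeR's TMM factors, without a filter and in the replicate block. Nor did it pass with the covariates, without combination tumors 7 and 8, or with several single tumors left out. MHC class I and immunoproteasome genes rose in 5 of 21 and fell in 0 (median 0.13), beside rises in 20.2% of all genes tested, with 2 rises in libraries above 14000000 reads and 8 without combination tumor 8, and MHC class II genes rose in 8 of 13 and fell in 0 (median 0.49), with 5 rises when only genes of both tables were tested or with edgeR or DESeq2 on the recovered reads, and 4 in libraries above 14000000 reads. H2-Aa had 9578 to 14332 normalized counts (median 11110.5) with ADU-S100 alone and 12725 to 22134 (median 18616) with the combination (log2 fold change 0.61, SE 0.131, adjusted p = 0.00119). Of the STING pathway itself 5 of 11 genes rose and 1 fell (median 0.12), with Ikbke at 0.48 and Lrrc8a, a subunit of the anion channel that carries cyclic dinucleotides, at -0.45. Ifnb1 had 0 to 63.4 normalized counts (median 3.67) with ADU-S100 alone and 0.947 to 60.7 (median 3.37) with the combination (exact two-sided p = 0.938).

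The circadian clock runs as a loop in which BMAL1, encoded by Arntl, and CLOCK activate Per, Cry, Nr1d and PAR bZIP genes through E-boxes. Arntl (chromosome 7, 113207465 to 113314126) had 645 to 1019.8 normalized counts (median 768) with ADU-S100 alone and 283 to 404 (median 328) with the combination (log2 fold change -1.22, SE 0.0970, adjusted p = 2.96e-06), and no combination tumor reached the lowest ADU-S100 tumor. Clock fell from 1369.7 to 1002 and Nfil3, the repressor at D-boxes, from 670.2 to 473 (-0.50 and -0.55). The PAR bZIP genes described next rose, as did Per2 and Per3. Hlf, a PAR bZIP activator at D-boxes, had 8.99 to 36.2 normalized counts (median 15.9) with ADU-S100 alone and 64.0 to 127 (median 88.9) with the combination (log2 fold change 2.25, SE 0.249, adjusted p = 1.04e-05), Dbp rose from 338 to 849.5, Tef from 1123 to 1802, Per2 from 223 to 398 and Per3 from 389.6 to 612 (1.47, 0.75, 0.84 and 0.67). In total 8 of 19 genes rose and 3 fell (median 0.23), and Nr1d1, Nr1d2 and Ciart gave 0.14, 0.05 and 0.23 without passing. The labels used here do not give the hour at which each tumor was collected.

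Promoters of Tef and Per3 are shown because they are members that rose and held a match to a clock element. Each is the 250 bases before a RefSeq start on GRCm38.p6, 5′ to 3′, the first and second start of Tef at chr15:81802423-81802672 and chr15:81811164-81811413 on the plus strand, and Per3 at chr4:151044666-151044915 on the minus strand. Capitals mark the E-box CACGTG in Tef, 127 and 138 bases before the start, and the D-box TTATGNAA in Per3, 205 and 158 bases before it, both searched on both strands. Of all 32851 promoters of this length 6.02% held the E-box and 3.07% the D-box. Of the 20 listed clock genes 17 had a promoter in the RefSeq table, and 5 of them held an E-box (Bhlhe41, Ciart, Cry1, Per1 and Tef) and 2 a D-box (Per1 and Per3).
Tef, first start: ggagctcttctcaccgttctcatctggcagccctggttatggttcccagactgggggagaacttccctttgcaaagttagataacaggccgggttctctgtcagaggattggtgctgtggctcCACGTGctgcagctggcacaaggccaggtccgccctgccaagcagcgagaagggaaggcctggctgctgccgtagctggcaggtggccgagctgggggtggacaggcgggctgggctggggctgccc
Tef, second start: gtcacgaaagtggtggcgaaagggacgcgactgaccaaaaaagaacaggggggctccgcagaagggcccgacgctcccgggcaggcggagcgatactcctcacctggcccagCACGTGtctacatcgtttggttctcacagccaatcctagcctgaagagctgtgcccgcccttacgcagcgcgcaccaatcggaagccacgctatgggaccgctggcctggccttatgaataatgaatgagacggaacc
Per3: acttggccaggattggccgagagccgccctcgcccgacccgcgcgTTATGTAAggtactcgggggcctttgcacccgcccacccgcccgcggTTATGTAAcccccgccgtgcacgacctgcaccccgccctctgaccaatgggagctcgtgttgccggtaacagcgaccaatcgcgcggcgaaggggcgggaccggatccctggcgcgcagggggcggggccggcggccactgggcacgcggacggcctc

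Outside the lists, the genes with the largest or best resolved non-overlapping falls are described next. Thsd4, which encodes a fibrillin-binding ADAMTS-like protein (chromosome 9, 59966931 to 60522046), had 921 to 1306 normalized counts (median 1072) with ADU-S100 alone and 202 to 512 (median 336) with the combination (log2 fold change -1.76, SE 0.144, adjusted p = 2.96e-06). Chmp4c, an ESCRT-III subunit of cell division, had 281 to 459 normalized counts (median 419.96) with ADU-S100 alone and 97.2 to 197 (median 108) with the combination (log2 fold change -1.68, SE 0.153, adjusted p = 4.63e-06). Slit2, a guidance ligand for Robo receptors, had 1276 to 1633 normalized counts (median 1532) with ADU-S100 alone and 499.7 to 841 (median 589.7) with the combination (log2 fold change -1.27, SE 0.0964, adjusted p = 2.58e-06), the smallest adjusted p of the falling genes, and Sema3c, a semaphorin, fell from 1419.6 to 484 (-1.57). Cxadr, the coxsackievirus and adenovirus receptor of epithelial junctions, fell from 746 to 272 (-1.42), Insm1, a neuroendocrine transcription factor, from 253 to 85.3 (-1.51), and Tpd52l1 from 357 to 181 (-1.001). The largest of these non-overlapping falls, -2.17, was in Gm13230, a gene model with 67.7 to 203 normalized counts (median 127) with ADU-S100 alone and 7.07 to 59.4 (median 30.7) with the combination. The remaining ones were Dnajc22, Wdr72, Slitrk5 and Dmrta2, at medians of 41.3, 39.1, 85.4 and 43.1 with ADU-S100 alone and log2 fold changes of -2.01, -1.67, -1.45 and -1.43. Among the rises that were no immunoglobulin genes, Reg3g, an antibacterial lectin of epithelium, had 5.99 to 37.5 normalized counts (median 13.3) with ADU-S100 alone and 49.6 to 319.7 (median 157) with the combination (log2 fold change 3.05, SE 0.384, adjusted p = 2.34e-05), Col6a5, a collagen VI chain, rose from 52.8 to 364 (2.88), Scart1, a scavenger receptor of γδ T cells, from 14.2 to 106 (2.67) and Gm266 from 5.71 to 30.4 (2.70).

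The antibody's effect in the presence of ADU-S100 was then set against its effect in its absence by the interaction term of a limma fit to all 32 libraries, the first difference minus the second. Of 17649 genes tested the term was positive in 1293 (7.33%) and negative in 1947 (11%) at an adjusted p below 0.05. With edgeR the positive genes were the more numerous, so which direction held more genes depended on the setting. In blood endothelium 20 of 28 members were positive and 1 negative, with a median antibody effect of 0.27 without ADU-S100 against 0.90 with it. Collagens and matrix gave 14 positive and 1 negative of 23 (medians 0.09 and 0.89), crosslinking enzymes and proteases 12 and 3 of 25 (-0.10 and 0.60), and myofibroblast and mural genes 9 and 1 of 18 (0.02 and 0.56). TGF-β pathway genes were negative in 10 and positive in 3 of 20 (-0.02 and -0.25). The lymphatic list was positive in 5 of 11 (0.73 and 1.56). Immunoglobulin constant genes passed in neither direction in any of 11 (1.40 and 2.38), so for them a difference between the antibody's effects was not shown. Clock genes were negative in 4 and positive in 0 of 20 (0.39 and 0.23). Antiviral genes were negative in 3 of 26 (0.31 and -0.03), interferon-γ-induced GTPases in 6 of 18 (0.58 and 0.15), and mast cell genes positive in 5 of 16 (-1.91 and -0.57). The muscle list had a median antibody effect of 1.68 without ADU-S100 and -0.11 with it, and the keratinocyte list -0.46 and 1.31. Their part in the interaction was not tested.

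**Figure D5:**
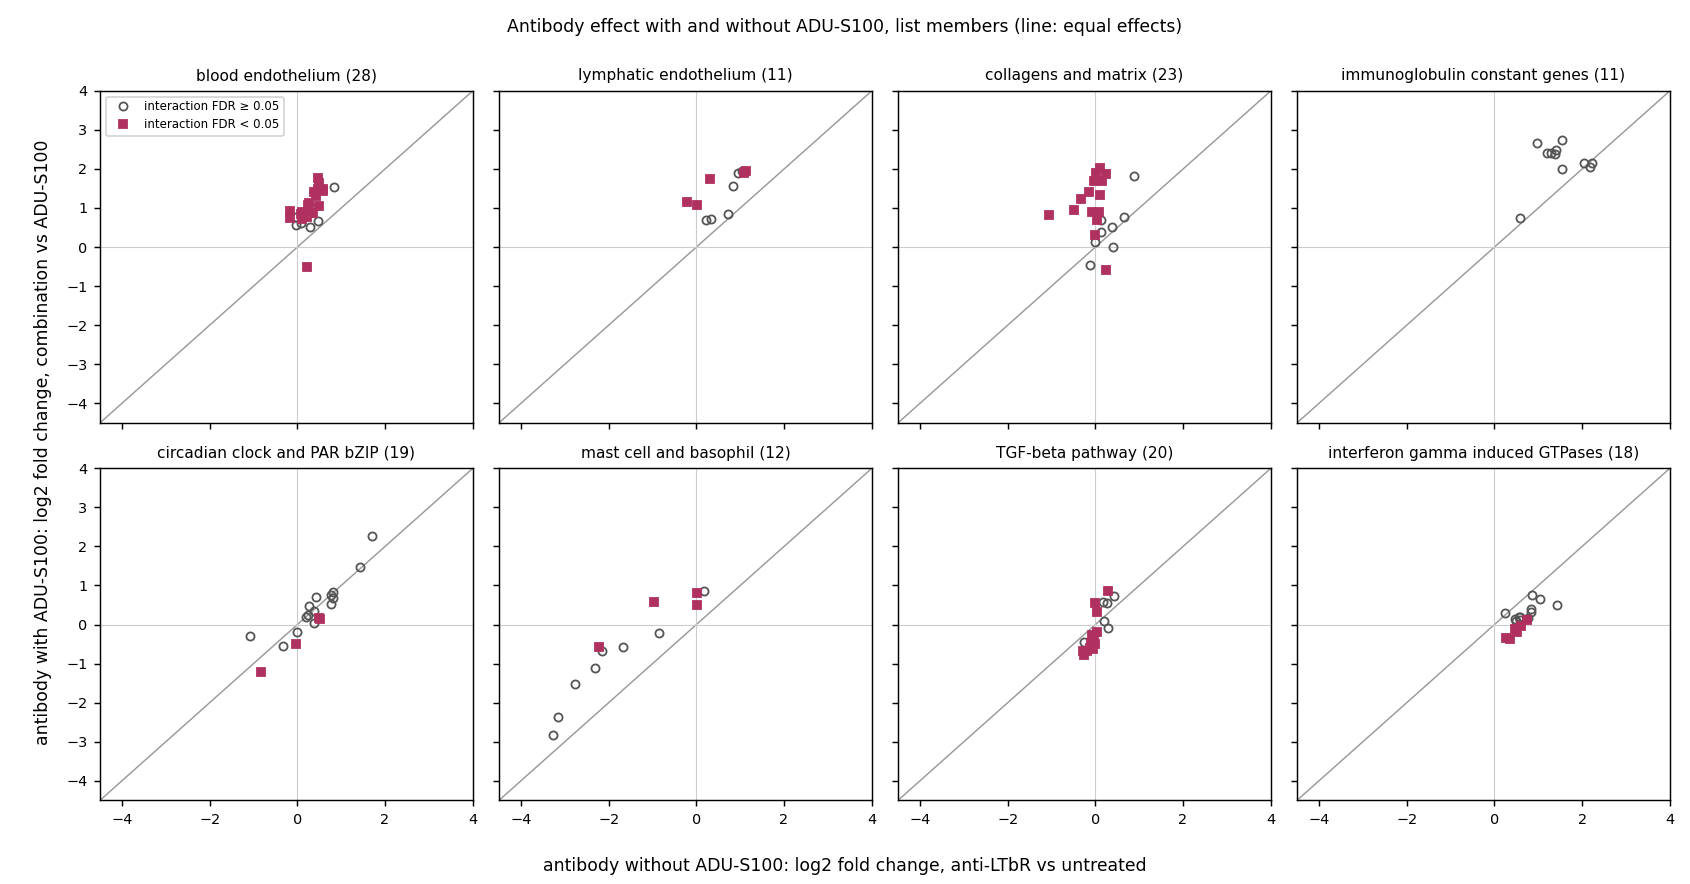
Log2 fold change of the antibody without ADU-S100 (x axis, antibody alone over untreated) and with it (y axis, combination over ADU-S100) for the members of 8 lists, with squares where the interaction had an adjusted p below 0.05. Most blood endothelial and collagen genes lie above the diagonal, with medians of 0.27 and 0.09 on the x axis and 0.90 and 0.89 on the y axis.

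The genes of the next sentences, up to Fbxw11, were named for the smallest interaction p, so that they passed follows from that choice. Ptx3, a soluble pattern recognition protein of fibroblasts and myeloid cells, averaged 221 ± 88.9 normalized counts (SD, n = 8) in untreated tumors and 51.9 ± 12.7 with the antibody alone, a log2 fold change of -1.97, while ADU-S100 tumors held 23.2 to 93.4 and combination tumors 81.1 to 140.5 (0.97), so the interaction was 2.94 (SE 0.350, adjusted p = 3.24e-05 from limma). Ccdc80, a matrix protein of fibroblasts and adipocytes, went -0.27 without and 1.38 with ADU-S100 (interaction 1.65, adjusted p = 9.15e-05 from limma), and Enpp3, the basophil and mast cell ectoenzyme CD203c, -0.74 and 1.41 (interaction 2.14, adjusted p = 9.15e-05 from limma). Mtap and Trp53i11 differed little without ADU-S100, 0.05 and -0.09, and rose with it, 1.11 and 0.999. In the other direction Ptpn13, a phosphatase of epithelial cells, Lrrk2, a kinase, Mapk1ip1l and Fbxw11, a ubiquitin ligase subunit, gave 0.13, 0.03, 0.02 and -0.02 without ADU-S100 and -0.58, -0.68, -0.33 and -0.38 with it. Among the LTβR ligands Tnfsf14 differed (interaction 0.80, adjusted p = 0.00676 from limma), and Ltb and Lta did not pass (interaction 0.60 and 1.09, adjusted p = 0.0938 and 0.112 from limma).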

How the data were processed

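Total RNA of individual KPC tumors was sequenced as poly(A)-selected bulk libraries. The authors deposited normalized counts, a signal per gene made by dividing reads estimated for each of 27525 genes by 1 size factor per library, for 32 libraries, and a larger normalized count table of 52 libraries. The submitters' processing notes name cutadapt 1.9, FastQC, HISAT2, StringTie, STAR, Partek, DESeq2 and edgeR and the build mm39, without saying which aligner made each table. Whether counting used strand is not given in the sources used here, so overlapping genes could share reads. Another deposited file holds the authors' own enrichment scores and was not used. Every sample column matched a sample (0 left over), but 15 libraries of the larger table whose labels do not settle their treatment, and 5 combination tumors with another tag, were not analysed here.

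Groups followed the sample labels. The labels give all 32 tumors 1 tag and the other libraries of the larger table another, and do not assign tumors to mice, so no term for either was fitted. All genes kept by filterByExpr of edgeR 4.0.16 with a minimum of 10 were fitted with limma 3.58.1 (R 4.3.3, trend) on log2(normalized count + 1) over the 16 libraries, with Benjamini-Hochberg adjustment over 16811 genes. Genes were called at an adjusted p below 0.05 and at least 2-fold. The fold of low genes is understated on this scale. The interaction was fitted over 32 libraries. List members below the filter were compared by exact two-sided permutation tests over all splits of the 16 tumors, adjusted over 46 genes. edgeR's quasi-likelihood test and DESeq2 1.42.0 on whole reads recovered from the larger table, where 100% of values below 50 reads lay within 0.02 reads of a whole number, other filters, pseudocounts of 0.5 and 0.1, the replicate block, depth and left-out libraries were alternatives. On simulated counts for this comparison with a log2 change of 1.5, limma called 193 of 200 changed genes among 15258 tested, with 3 false calls, and edgeR 196 of 200 among 15337, with 3. Each made 7 false calls at the adjusted p alone. The simulated levels and spread came from the ADU-S100 libraries only, and changes were placed only in genes above a minimum level. These figures therefore do not cover changed genes of a few reads, or genes that spread more among combination tumors.

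The comparison and the 50 gene lists were chosen with earlier results of these data known. Genes were named by these rules: the 10 per direction with the largest change among called genes whose groups do not overlap and whose mean is at least 20, the 5 per direction with the smallest adjusted p among those, at most 4 per list with the smallest adjusted p and a mean of at least 10, the drug targets and LTβR ligands, and the 5 per direction with the smallest interaction p. Other list members are given where counts are described, and a few genes are not reported here. Recovered reads ran from 12803439 to 15591986, and 2 libraries per group were under 14000000. The p-values measure the spread between tumors of 1 cell line. GRCm38 positions come from the GENCODE annotation matched by gene ID, and promoters from RefSeq on GRCm38.p6. The submitters' notes name another build, and which build each deposited table used is not settled here.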

Additional observations from a re-analysis of the deposited data

Results flagged for a closer look

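Each named gene was checked in each group of 8 for a tumor whose gap to the next, divided by the range of the group, exceeded Dixon's critical value for 8 samples. That gave 37 cases in 402 checks of 201 genes, and chance alone gives about 1 in 20 groups. No explanation was weighed, and the values are in normalized counts with the range of the other 7 tumors of the group in parentheses.

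Combination tumor 5 stood apart in the most genes of its group, mostly of stroma and endothelium. In combination tumor 1, Tnfrsf18 was at 196 (146 to 166). In combination tumor 2, Trex1 was at 478 (318 to 371) and Ngfr at 83.9 (36.0 to 54.9). In combination tumor 4, Cd4 was at 153 (214 to 263), Ccr2 at 691 (853 to 964) and Il10 at 25.8 (15.0 to 20.1). In combination tumor 5, Ecscr was at 605 (346 to 442), Pdpn at 1643 (783 to 1182), Gpnmb at 4434 (1272 to 2701), Loxl2 at 5624 (1801 to 3489), Mmp19 at 1784 (897 to 1303), Ltbp4 at 2408 (3283 to 3927) and Ccdc80 at 4099 (1584 to 2545). In combination tumor 6, Igkv2-137 was at 2678 (93.2 to 644), Igkv8-24 at 709 (44.9 to 235), Klrd1 at 205 (123 to 159) and Nfil3 at 365 (465 to 519). In combination tumor 7, Igkv6-17 was at 2967 (177 to 488), Ighg2b at 28109 (3898 to 13998) and Tent5c at 1201 (499 to 778). In combination tumor 8, Alox15 was at 114 (46.3 to 73.4).

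In ADU-S100 tumor 1, Cxcr6 was at 103 (159 to 197), Ctss at 8344 (11037 to 12861), Mcpt2 at 468 (38.9 to 220.3) and Kit at 169.9 (79.5 to 121). In ADU-S100 tumor 2, F11r was at 2087 (1597 to 1814) and Lrrk2 at 1657 (1164 to 1335). In ADU-S100 tumor 4, Erg was at 29.5 (44.9 to 57.2) and Lrrc8a at 1695 (1284 to 1451). In ADU-S100 tumor 5, Ighv1-59 was at 125 (7.01 to 35.5). In ADU-S100 tumor 6, Cxcl12 was at 2181 (924 to 1289), Gpnmb at 1301 (302 to 610.2) and Junb at 5104 (6294 to 7006). In ADU-S100 tumor 8, Igkv6-17 was at 161 (10.9995 to 75.6), Chmp4c at 281 (394 to 459), Ccl21a at 631 (321 to 445) and Klrd1 at 128 (91.5 to 108).

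In 27 of 42 genes the antibody's effect differed with and without ADU-S100 by the interaction term of the limma fit to 32 libraries (adjusted p below 0.05). Ptx3, Ccdc80, Enpp3, Mtap, Trp53i11, Ptpn13, Mapk1ip1l, Lrrk2 and Fbxw11 were among the 42 because of their small interaction p and many others because of a large effect with ADU-S100, so this number supports nothing about the antibody. Over all genes tested the term was positive in 7.33% and negative in 11%. The log2 interaction was positive for Ighv1-59 3.05, Igkv2-137 2.77, Gm266 1.496, Scart1 2.31, Prox1 0.80, Cd4 0.88, Egfl7 1.01, Flt4 0.82, Mtap 1.05, Tnfsf14 0.80, Ptx3 2.94, Ccdc80 1.65, Enpp3 2.14, Trp53i11 1.09. It was negative for Gm13230 -1.70, Thsd4 -1.01, Chmp4c -0.78, Wdr72 -1.31, Slitrk5 -1.17, Cxadr -0.73, Slit2 -0.73, Arntl -0.39, Tpd52l1 -0.53, Ptpn13 -0.71, Mapk1ip1l -0.35, Lrrk2 -0.72, Fbxw11 -0.36.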

How the results depend on the processing

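Of the alternatives, these moved the count of called genes by more than 1.5 times. An adjusted p without a fold threshold gave 3391 higher and 4368 lower genes against 918 and 120, at least 10 normalized counts in every library gave 567 and 60, no filter on low values gave 252 lower (and 1338 higher, within 1.5 times), and leaving out the 5 libraries above 30000 keratinocyte counts, an alternative chosen after seeing the data like the covariates, the erythrocyte setting and the single left-out libraries, gave 184 lower. Dropping the fold threshold admits smaller changes by construction, the filters tested 14736 and 27524 genes against 16811, and the cause of the other move was not tested. Counts of higher genes under the settings not named so far ran from 912 with genes of both tables to 1044 with DESeq2, and of lower genes from 89 in libraries above 14000000 reads to 158 without combination tumors 7 and 8. Leaving out 1 library at a time gave 838 to 1023 higher and 95 to 139 lower genes. The share of rising genes among those past the adjusted p was 43.7% and ran from 40.0% to 51.5%, above 50% with edgeR's TMM factors and library totals only. The interaction counts of 1293 and 1947 were 1476 and 1399 with edgeR, 1170 and 1658 without a filter and 1328 and 1972 when the replicate number entered as a block.

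No named gene reversed. Zbp1, Tgtp1, Tgtp2, Ifi47, H2-T23, Tapbp, Alox15, F11r, Pkp1, Cdh2, Twist1 and Ndufa1 lost their call under at least 1 alternative, the cause of which was not tested. When the replicate number entered the main comparison as a block, 916 genes were called higher and 118 lower. Tumors sharing a number did not deviate together, with a mean correlation of -0.0839 against 0.0121 for other numbers, 2 of 8 pairs above 0.1, and 1 pair in which the own number correlated best. Depth limits genes of a few reads per tumor, such as Madcam1 and Chst4, where a difference may not be detectable.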
